A study of Mus musculus with 26 samples.

Results

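Genes of retinoic acid response and metabolism were followed through the chemical reprogramming of mouse fibroblasts into pluripotent stem cells. The set holds 8 genes, Rbp4, Stra6, Crabp1, Crabp2, Dhrs3, Rarb, Cyp26a1 and Cyp26b1, chosen by name from the 16718 rows of the deposited expression table, and each was found as 1 row. RNA was sequenced in 26 libraries. Mouse embryonic fibroblasts (MEF, day 0) gave 1 library. A course with all chemicals, called the full course here, gave 1 library on each of days 6, 12, 18, 22, 30, 36 and 40. The same 7 days were sampled once each in a course that lacked BrdU, the thymidine analogue bromodeoxyuridine. Days 6, 12, 18, 22 and 30 were sampled once each in another course that lacked Chir, which blocks the kinase GSK3 and so activates Wnt signalling. Established chemically induced pluripotent stem cells (CiPSC) gave 6 libraries. The labels give no strain, age or sex of the mice, no count of cultures or cell lines, and no list of the other chemicals that all 3 courses share. Whether a retinoid was among them is not given in the sources used here.

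Vitamin A (retinol) circulates bound to Rbp4 and can enter cells through the receptor Stra6. Dehydrogenases oxidise it to retinal and then to retinoic acid, and Dhrs3 turns retinal back into retinol. Retinoic acid is carried in the cytosol by Crabp1 and Crabp2 and acts through nuclear receptors such as Rarb, which bind DNA together with a retinoid X receptor. The cytochrome P450 enzymes Cyp26a1 and Cyp26b1 break it down. Several of these genes, Rarb, Cyp26a1, Dhrs3 and Stra6 among them, are known to be induced by retinoic acid itself, and retinoic acid is widely used to drive pluripotent cells into differentiation.

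The deposited values are scores that the authors had set to 1 common distribution, so each library has a total between 4143561 and 4162600 and a maximum of 21988, and the depth behind a value is unknown. No member reached that maximum (highest member value 8324). The markers fixed for the labelled cells were present: all 12 fibroblast markers stood at 10 or more in MEF (summed score 82434, against 104 to 577 in CiPSC), and the 13 pluripotency markers summed to between 33487 and 47368 in CiPSC against 1174 in MEF. The MEF library also held all 10 macrophage markers, with a summed score of 4410 against 87 to 466 in the courses, and their part in the comparisons with MEF was not tested. All RNA is from bulk cultures, in which fewer cells of a type and less RNA per cell cannot be told apart. With single libraries per course and day, the tests take the spread from the days.

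The first 6 days of chemicals brought 6 of the 8 genes up in all 3 courses. Cyp26a1 and Stra6, both listed at 0 in MEF, were present by day 6 in every course. Cyp26a1 had 402 in the full course, 53 without BrdU and 884 without Chir. Stra6 had 982, 1982 and 229 in the same order. Cyp26b1 went from 22 in MEF to 2631 on day 6 of the full course, 2167 without BrdU and 2280 without Chir. The 3 values of this gene lie close together and far above the fibroblast value. Rarb, at 14 in fibroblasts, reached 729, 849 and 506 in the same order. Dhrs3 went from 242 to 1386, 1916 and 2277. Crabp2, which hands retinoic acid to its receptor, went from 262 to 620, 1046 and 742. The 2 genes outside this pattern were Crabp1 and the retinol carrier Rbp4, which had 34 in MEF against 62, 106 and 58 after 6 days. Crabp1 was already at 1536 in MEF and stood at 1445 on day 6 of the full course, 6875 without BrdU and 314 without Chir, so the 3 courses had separated at this gene by the first time point. A gene counted as higher here where log2(score + 1) exceeded that of MEF by at least 1 in all 3 courses, which held for 8.02% of the 16718 genes, while 5.88% were lower by the same rule (13.9% moved in all). With 1 library on each side there is no replicate check and no test.

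**Figure D1:**
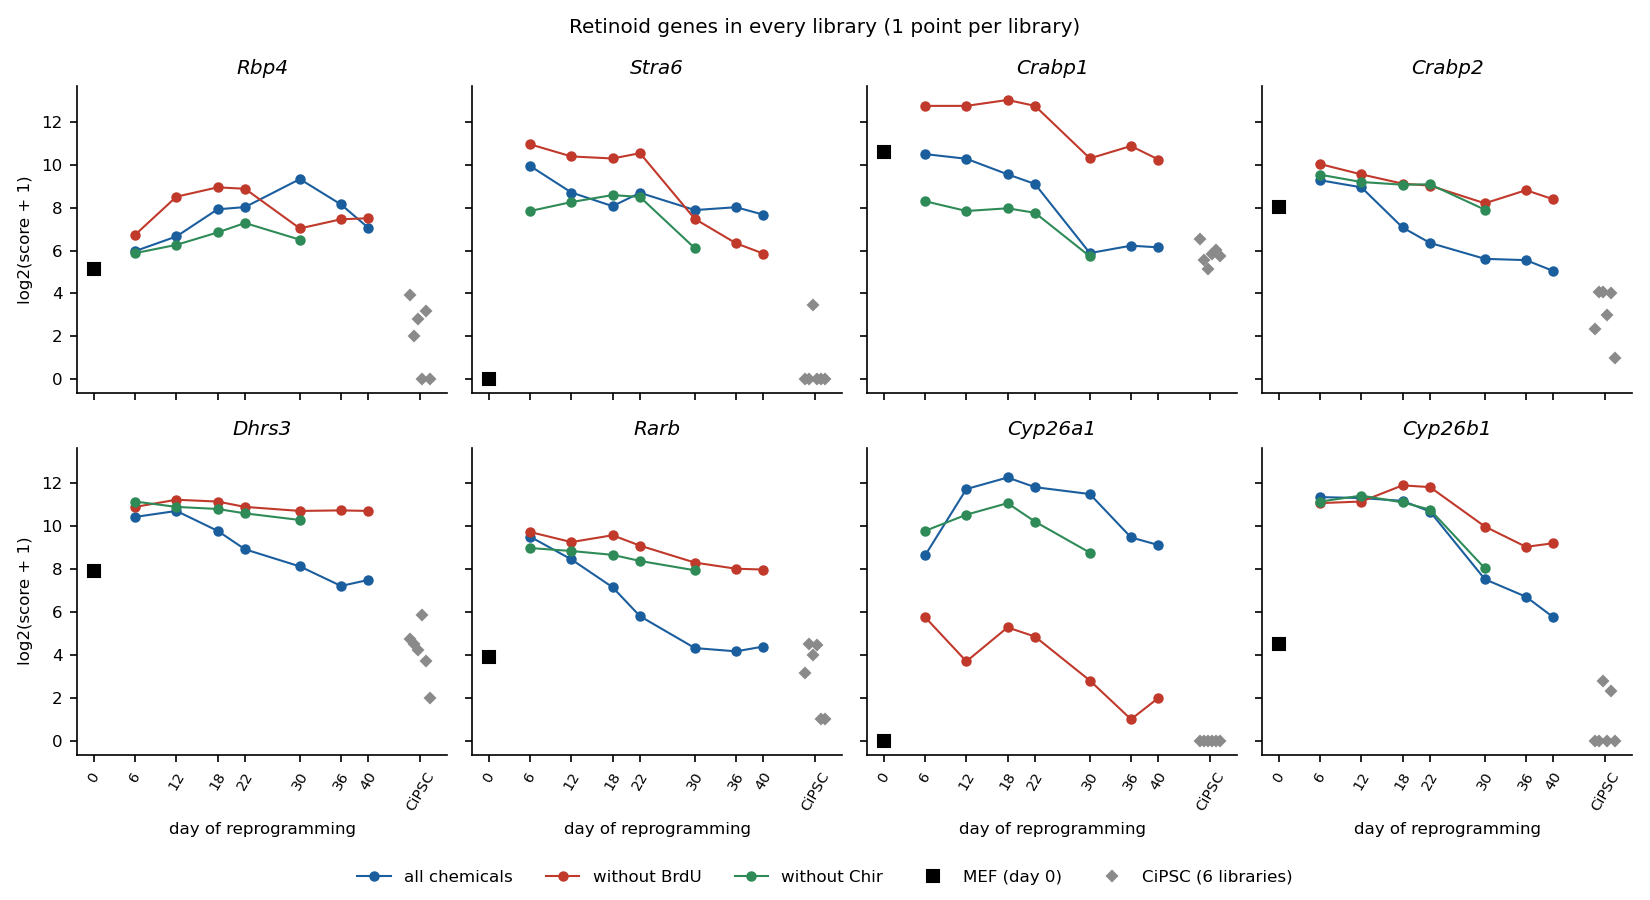
Score of each of the 8 genes on a log2(score + 1) axis in every library, by day for the 3 courses (lines), with MEF at day 0 (black square) and the 6 CiPSC libraries at the right (grey diamonds). Cyp26a1 is the member whose course without BrdU (1 to 53) lies wholly below the full course (402 to 4959), and in the full course Rarb and Dhrs3 decline from days 6 and 12 to day 36.

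Within the full course Rarb, Dhrs3 and Cyp26b1 were high early and low late, while Cyp26a1 peaked between. Rarb was highest on day 6 at 729 and stood at 350 on day 12, 142 on day 18, 55 on day 22, 19 on day 30, 17 on day 36 and 20 on day 40, close to the 14 of MEF. Cyp26a1 stood at 402 on day 6, 3414 on day 12, 4959 on day 18, 3627 on day 22, 2902 on day 30, 714 on day 36 and 558 on day 40. Rarb fell over the days on which Cyp26a1 was at its highest. It also fell without BrdU, from 849 on day 6 to 252 on day 40, where Cyp26a1 lay between 1 and 53. A link between the 2 genes was not tested. Cyp26b1 stayed between 1650 and 2631 on days 6 to 22 and was at 184, 104 and 53 on days 30, 36 and 40. Dhrs3 was highest on day 12 at 1682 and lowest on day 36 at 148, with 180 on day 40, and Crabp2 declined from 620 on day 6 to 32 at the end. Rbp4 had its highest value late, with 644 on day 30.

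Days 30 to 40 of the full course were compared with days 12 to 22 (3 libraries each). Of the 8 members 4 fell and none rose, against 7.79% and 6.81% of the 16211 genes tested (14.6% in all). Cyp26b1 fell by 4.40 ± 0.42 on the log2 scale (± is the moderated standard error of limma throughout, adjusted p = 0.00132) and Crabp1 by 3.56 ± 0.29 (adjusted p = 0.000917). Rarb fell by 2.85 ± 0.60 (adjusted p = 0.0204) and Dhrs3 by 2.20 ± 0.44 (adjusted p = 0.0180). The Rarb call ended without day 18, 30, 36 or 40 (adjusted p = 0.0649 to 0.0883), and the Dhrs3 call without day 18, 36 or 40 (0.0771 to 0.0819). Crabp2 (-2.06 ± 0.60, adjusted p = 0.0613), Cyp26a1 (-1.91 ± 0.57, 0.0646), Stra6 (-0.63 ± 0.21, 0.0929) and Rbp4 (0.64 ± 0.59, 0.505) did not pass. Over the same days 3 of 12 fibroblast markers fell and none rose, 2 of 13 pluripotency markers rose and none fell, 4 of 18 endoderm markers rose and 2 fell, and their part in the fall was not tested. Without day 30, Cyp26a1 passed (-2.64, adjusted p = 0.00529), and without day 22 Crabp2 did (-2.61, adjusted p = 0.0327).

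A linear slope fitted from MEF through all 7 full course days describes these genes poorly, since most rise by day 6 and fall later. Crabp1 (-1.37 ± 0.18 per 10 days, limma adjusted p = 0.00261) and Crabp2 (-1.02 ± 0.17, adjusted p = 0.00606) had a falling slope, 2 of 8 members and none a rising one, against 7.42% and 9.31% of the 16314 genes tested (16.7% in all). Without MEF 6 of 8 had one, against 9.16% of the 16248 genes then tested, among them Cyp26b1 (-1.85, adjusted p = 0.00332), Rarb (-1.66, 0.00252), Dhrs3 (-1.08, 0.00239) and Stra6 (-0.52, 0.0256). The sign of Stra6 (0.87 with MEF) turned when MEF was left out.

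Without BrdU the degrading enzyme Cyp26a1 was far lower on all 7 days, while Crabp1, Rarb, Crabp2 and Dhrs3 were higher on all 7. The test passed for 6 of the 8 genes (limma with day as a block, 14 libraries), 5 higher (those 4 and, less firmly, Cyp26b1) and 1 lower, against 42.6% of the 16308 genes tested (21.1% higher and 21.5% lower).

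Cyp26a1 without BrdU stood at 53 on day 6, 12 on day 12, 38 on day 18, 28 on day 22, 6 on day 30, 1 on day 36 and 3 on day 40. Every one of these lies below the lowest full course value, 402, so the courses did not overlap. The log2 difference was -7.03 ± 0.61 (adjusted p = 0.000328), and it held with each day left out. Markers of extraembryonic endoderm were also lower in this comparison. In the full course these markers and Cyp26a1 rose from day 6 to 18 (summed score 8130 to 52898, Cyp26a1 402 to 4959). From day 22 to 40 the markers went from 76146 to 64662 and Cyp26a1 from 3627 to 558. MEF had a summed score of 13804 with Cyp26a1 at 0. All 18 of those markers were lower without BrdU, with a summed score of 4265 to 6524 against 8130 to 76146 in the full course. Foxa2, Hnf4a, Apoa1 and Amn stayed under 10 on every day without BrdU, and Apoa4 was listed at 0. The part of such cells in the difference was not tested.

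Crabp1 showed the widest rise without BrdU. It stood at 6875 on days 6, 12 and 22, 8324 on day 18, 1259 on day 30, 1878 on day 36 and 1212 on day 40. The equal values come from the authors' common distribution, in which 1 gene of every library is given 6875. In the full course the same days gave 1445 on day 6, 1243 on day 12, 752 on day 18, 550 on day 22, 58 on day 30, 74 on day 36 and 70 on day 40. The log2 difference was 3.57 ± 0.29 (adjusted p = 0.000303), with no day on which the order turned. The ranges of the 2 courses overlapped between 1212 and 1445.

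Rarb, the receptor, was at 849, 614, 766 and 547 on days 6, 12, 18 and 22 without BrdU and at 316, 259 and 252 on days 30, 36 and 40. It was higher than in the full course by 2.60 ± 0.47 (log2, adjusted p = 0.00307), with a difference of 0.22 on day 6 and 3.99 on day 30. Dhrs3, which lowers retinal, stayed between 1682 and 2416 on all 7 days and was higher by 1.95 ± 0.38 (adjusted p = 0.00434). Crabp2 lay between 294 and 1046 and was higher by 2.18 ± 0.35 (adjusted p = 0.00197). For these 3 genes the courses differed by 0.22 to 0.75 in log2 on day 6 and by 1.36 to 2.42 on day 18. Of 12 fibroblast markers 8 were also higher without BrdU (summed score 43869 to 89758 against 10819 to 62528 in the full course). None was at 0 in every library of either course. In the full course the markers fell from 62528 on day 6 to 10819 on day 22, and Rarb from 729 to 55. Without BrdU the markers had 43869 on day 22 and 89395 on day 40, while Rarb had 547 and 252. MEF had 82434 with Rarb at 14. The part of these markers was not tested.

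Cyp26b1 passed with a smaller change (1.38 ± 0.44, adjusted p = 0.0315), higher on 5 of 7 days. The call ended without day 22, 30, 36 or 40 (adjusted p = 0.0571 to 0.0856), with days 6 to 30 only (0.78, adjusted p = 0.194) and with no day block (0.251). Stra6 (0.41 ± 0.53, adjusted p = 0.552) and Rbp4 (0.28 ± 0.43, adjusted p = 0.618) did not pass. Both were higher without BrdU on every day from 6 to 22, and Stra6 was lower on days 30 to 40. With days 6 to 30 only, Stra6 passed (1.27, adjusted p = 0.0494).

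**Figure D2:**
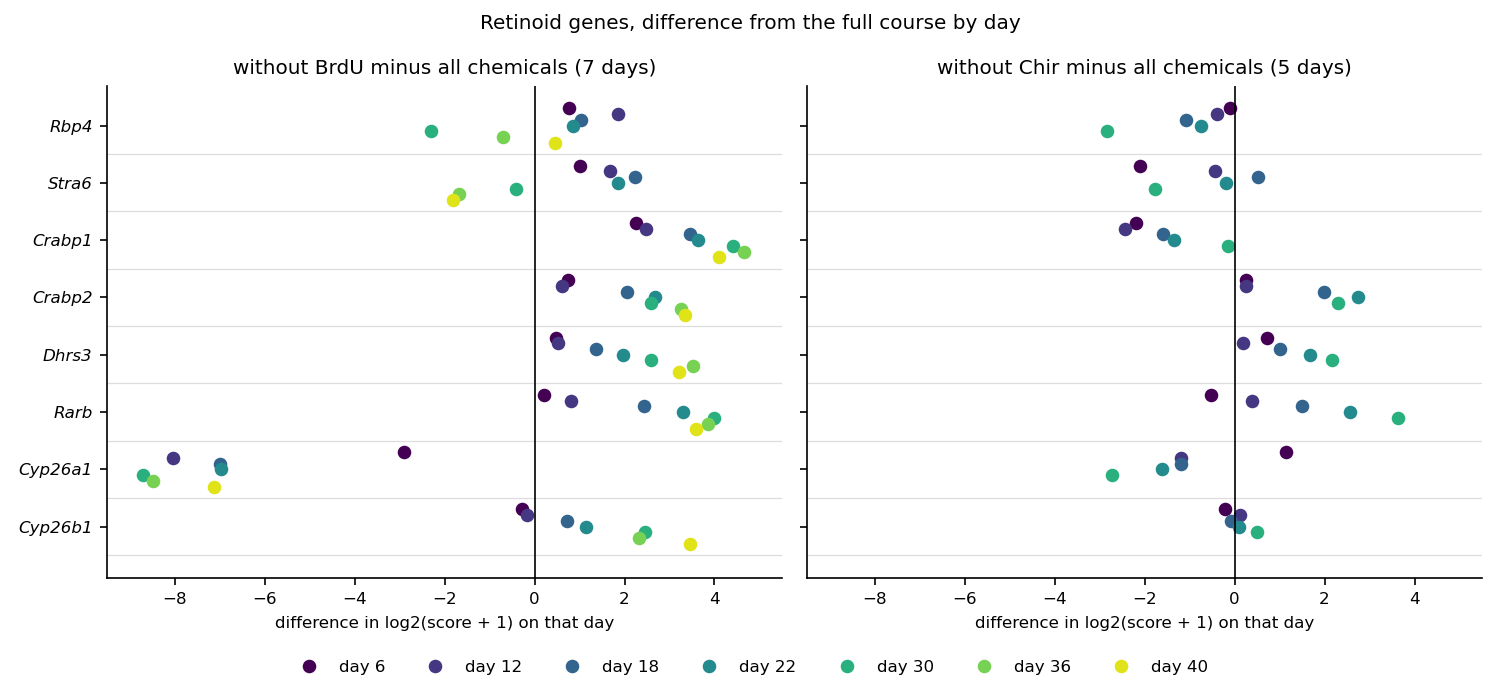
Difference in log2(score + 1) between a course with 1 chemical left out and the full course, 1 point per day (colour), for the course without BrdU (left, 7 days) and without Chir (right, 5 days). Cyp26a1 lies between -8.70 and -2.90 without BrdU, and the Rarb, Dhrs3 and Crabp2 points are smallest on days 6 and 12.

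The DNA around annotated starts of these genes was examined for the classical retinoic acid response element. It was chosen because Rarb and Cyp26a1, both textbook carriers of such an element, went opposite ways without BrdU. The RefSeq windows (GRCm38.p6) of 300 bases run from 250 before to 50 after each annotated start and were matched for 7 of the 8 members, all but Crabp2. The motif searched was a pair of 6-base units, each either AGGTCA or one of its known variants (the variant GGGTCA, also the variant AGTTCA, also the variant GGTTCA), on the same strand and 5, 2 or 1 bases apart, on both strands. A pair 5 apart was found in 0.0974% of the 32851 windows of all genes, in the only Rarb window and in the only Cyp26a1 window. None was found in the other 11 windows of members. Pairs 2 and 1 apart were found in 0.268% and 0.222% of all windows and in none of the 13 of members. The Rarb window and all Stra6 windows belong to starts inside the gene spans given below, not to the outer end of the gene. The Rarb match lies 53 to 37 bases before the start (chromosome 14, 16575513 to 16575529), and the Cyp26a1 match 32 to 16 bases before the start on the opposite strand (chromosome 19, 37697776 to 37697792). The 250 bases before the start are shown for both, and for the first of the 3 windows of Dhrs3, which had the highest Pearson r with Rarb over the 20 libraries of MEF and the courses. None of these 3 windows held a match. Capitals mark the 6-base units of the matched pair, read as the reverse complement for Cyp26a1. No match says only that these letters are not in the window.
Rarb, chr14:16575477-16575726, minus strand: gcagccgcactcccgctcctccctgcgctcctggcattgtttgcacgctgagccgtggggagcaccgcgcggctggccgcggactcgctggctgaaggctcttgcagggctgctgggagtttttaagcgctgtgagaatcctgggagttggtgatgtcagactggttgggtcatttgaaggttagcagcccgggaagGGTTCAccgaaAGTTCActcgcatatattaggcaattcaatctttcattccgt
Cyp26a1, chr19:37697558-37697807, plus strand: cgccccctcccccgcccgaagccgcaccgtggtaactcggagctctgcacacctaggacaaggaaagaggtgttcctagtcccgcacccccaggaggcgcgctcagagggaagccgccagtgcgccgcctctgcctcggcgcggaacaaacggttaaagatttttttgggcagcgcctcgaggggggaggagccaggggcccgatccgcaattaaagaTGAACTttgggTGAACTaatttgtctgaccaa
Dhrs3, chr4:144892577-144892826, plus strand: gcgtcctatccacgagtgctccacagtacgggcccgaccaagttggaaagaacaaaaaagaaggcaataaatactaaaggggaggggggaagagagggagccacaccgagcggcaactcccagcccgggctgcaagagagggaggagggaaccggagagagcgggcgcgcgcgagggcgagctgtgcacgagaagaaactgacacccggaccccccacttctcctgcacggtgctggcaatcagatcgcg

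Without Chir Cyp26a1 stayed between 436 and 2163, and Crabp1 was lower than in the full course. Over the 5 shared days 3 of 8 members passed (limma with day as a block, 10 libraries), Crabp2 and Dhrs3 higher and Crabp1 lower, against 26.5% of the 16248 genes tested (13.5% higher and 12.9% lower). This comparison rests on few days: leaving out day 18 or 22 ended every call among the members, and over all genes left 25 and 226 calls of 4298, while leaving out day 30 left 1 member (Crabp1) and 2143 genes. With no day block no member passed.

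Crabp1 without Chir stood at 314 on day 6, 229 on day 12, 250 on day 18, 216 on day 22 and 52 on day 30, lower than in the full course on all 5 days (-1.54 ± 0.32, adjusted p = 0.0181). On day 30 the difference was only -0.15. Dhrs3 stood between 1255 and 2277 and was higher on all 5 days (1.15 ± 0.28, adjusted p = 0.0272). Crabp2 stood between 239 and 742 and was higher on all 5 days (1.51 ± 0.40, adjusted p = 0.0333). Rarb, with 506 at the start and 246 on day 30, did not pass (1.52 ± 0.56, adjusted p = 0.0796), although it did without day 6 (2.03, adjusted p = 0.0298) and in 1 fit over the 3 courses (1.74, adjusted p = 0.0146).

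Cyp26a1 had 884 on day 6, 1490 on day 12, 2163 on day 18, 1190 on day 22 and 436 on day 30 without Chir. These values overlap the full course and did not pass (-1.12 ± 0.48, adjusted p = 0.117). Without day 6, the day on which Cyp26a1 was higher than in the full course, it passed as lower (-1.68, adjusted p = 0.0127). Extraembryonic endoderm markers were also lower without Chir, 14 of 18, with a summed score of 5401 to 11002. Their part in the Cyp26a1 values was not tested. Rbp4 (-1.03 ± 0.38, adjusted p = 0.0792), Stra6 (-0.80 ± 0.38, 0.150) and Cyp26b1 (0.09 ± 0.15, 0.696) did not pass. Rbp4 was lower on all 5 days and passed in 1 fit over the 3 courses (-1.11, adjusted p = 0.0492). Markers of adipocytes, a cell type in which Rbp4 is known to be made, were higher without Chir in 5 of the 5 genes that the table holds of 10 listed (summed score 2081 to 4706 against 349 to 756 in the full course), and none was at 0 on all 5 days. Their part was not tested.

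The 2 courses with a chemical left out were also compared with each other over the 5 shared days, a comparison added after the values were seen. Of the 8 members 1 was higher and 4 were lower without Chir (limma with day as a block, 10 libraries), against 16.9% and 15.2% of the 16087 genes tested (32.2% in all). Cyp26a1 was higher without Chir (5.60 ± 0.36, adjusted p = 0.000169), and its 2 courses did not overlap. Endoderm markers moved the same way, 9 higher and 1 lower of 17 tested, with a summed score of 5401 to 11002 without Chir and 4265 to 6201 without BrdU on these days. Crabp1 was lower without Chir (-4.79 ± 0.13, adjusted p = 1.16e-05), with single days between -5.05 and -4.45 and again no overlap. Stra6 (-2.07 ± 0.24, adjusted p = 0.00122), Rbp4 (-1.47 ± 0.27, 0.00725) and Rarb (-0.63 ± 0.12, 0.00841) were lower without Chir on all 5 days. Fibroblast markers were lower in 10 of 12 and higher in none. The part of either marker list in these differences was not tested. The Rarb call ended with no day block (adjusted p = 0.108). Crabp2 (-0.23 ± 0.12, 0.184), Dhrs3 (-0.23 ± 0.14, 0.235) and Cyp26b1 (-0.69 ± 0.32, 0.135) did not pass.

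**Figure D3:**
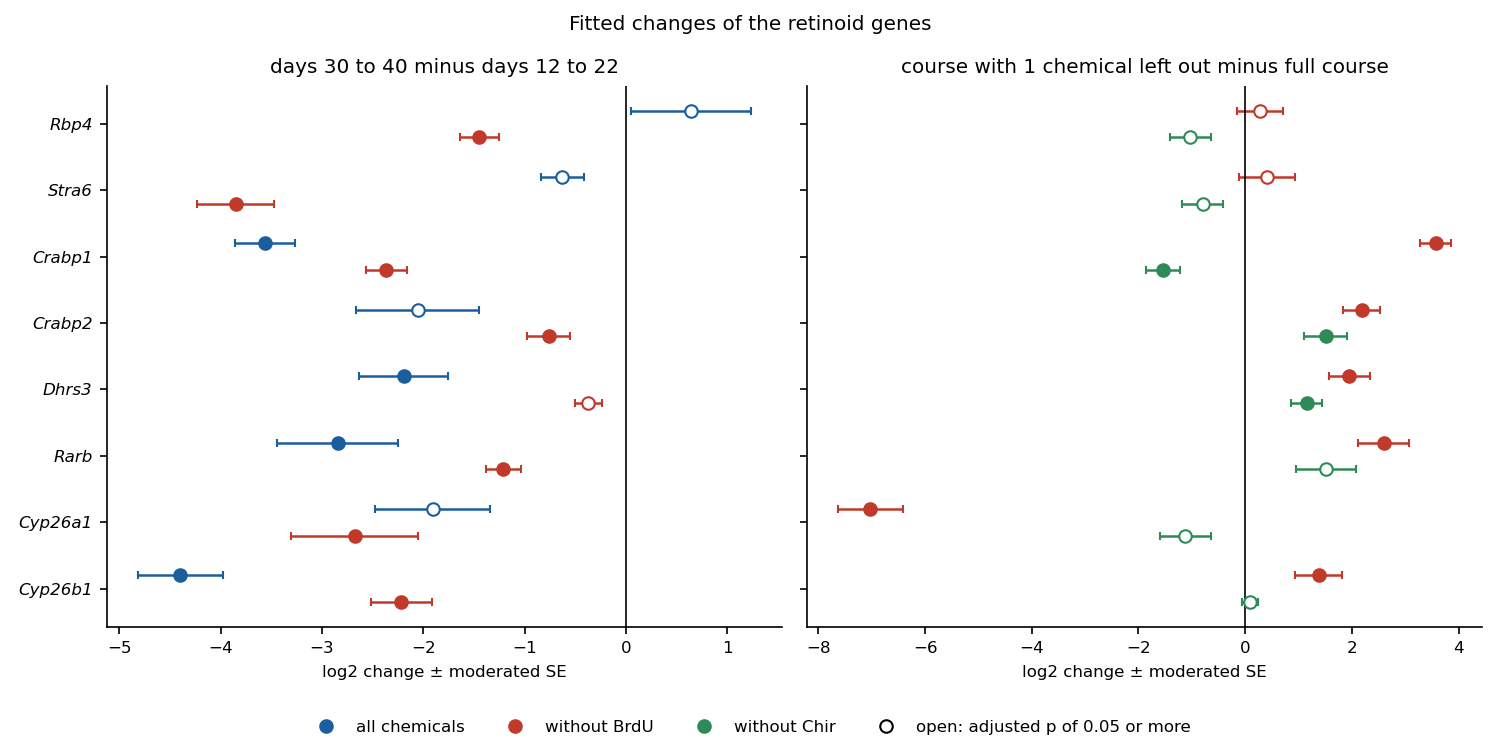
Fitted log2 change (point) ± moderated standard error (bar) of the 8 genes, on the left for days 30 to 40 minus days 12 to 22 within the full course and within the course without BrdU, on the right for each course with 1 chemical left out minus the full course. Filled points have an adjusted p under 0.05, and Cyp26a1 stands at -7.03 without BrdU and -1.12 without Chir.

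The late fall also appeared without BrdU. Between days 12 to 22 and days 30 to 40 of that course 7 of 8 members fell (a comparison added after the values were seen, limma, 6 libraries), and none rose, against 8.13% and 8.99% of the 15809 genes tested (17.1% in all). Stra6 went from between 1255 and 1490 to between 57 and 177 and fell by 3.85 ± 0.38 (adjusted p = 0.00129). Crabp1 fell by 2.37 ± 0.20 (adjusted p = 0.000770) and Cyp26b1 by 2.22 ± 0.30 (adjusted p = 0.00420). Rbp4 fell by 1.45 ± 0.19 (adjusted p = 0.00362), and Rarb by 1.21 ± 0.17 (adjusted p = 0.00451). Cyp26a1 (-2.68 ± 0.62, adjusted p = 0.0288) and Crabp2 (-0.76 ± 0.21, 0.0497) also passed. The Cyp26a1 call ended without day 18, 22, 36 or 40 (adjusted p = 0.0677 to 0.113), and the Crabp2 call without any 1 of days 12, 18, 22, 30 and 40 (0.0787 to 0.167). Dhrs3 did not pass (-0.37 ± 0.13, adjusted p = 0.0971). Over these days 4 of 12 fibroblast markers were lower and 2 higher, 2 of 5 adipocyte and 3 of 7 neural markers were lower and none higher, and 2 of 15 endoderm markers were higher and 1 lower. Their part in the fall was not tested.

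An interaction term (14 libraries) compared the BrdU difference of the late period, days 30 to 40, with that of days 6 to 22. It passed for 4 of 8 members, against 13.6% of the 16308 genes tested, with 3 members positive (7.02% of genes) and 1 negative (6.58%). Stra6 was higher without BrdU early (1982 against 982 on day 6) and lower late (57 against 203 on day 40), an interaction of -2.99 ± 0.39 (limma adjusted p = 0.00340). Cyp26b1 was lower without BrdU on days 6 and 12 (2167 against 2631 on day 6), higher on days 18 and 22 (3846 against 2330 on day 18), and furthest above late (592 against 53 on day 40), an interaction of 2.39 ± 0.41 (adjusted p = 0.00894). For Dhrs3 the effect grew by 2.03 ± 0.40 (adjusted p = 0.0143), a call that ended without day 36 (0.0659) or 40 (0.0670). For Crabp1 it grew by 1.43 ± 0.36 (adjusted p = 0.0346), which ended without day 12, 30, 36 or 40 (0.0821 to 0.128). Rbp4 (-1.97 ± 0.57, adjusted p = 0.0541), Rarb (2.12 ± 0.66, 0.0654), Crabp2 (1.55 ± 0.50, 0.0729) and Cyp26a1 (-1.88 ± 1.08, 0.275) did not pass. Without day 40 Rbp4 passed (adjusted p = 0.0330), and without day 22 Rarb (0.0138) and Crabp2 (0.0188) did.

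In CiPSC the genes were low. Cyp26a1 was listed at 0 in all 6 libraries, Stra6 in 5 of 6 and Cyp26b1 in 4 of 6. Rbp4 lay between 0 and 14 (median 4.5), Crabp2 between 1 and 16 (11) and Rarb between 1 and 22 (11.5). Dhrs3 lay between 3 and 58 (median 20), and Crabp1 between 34 and 92 (54.5). Day 40 of the full course, the last day sampled, still held Cyp26a1 at 558, Stra6 at 203, Dhrs3 at 180, Rbp4 at 132, Cyp26b1 at 53 and Crabp2 at 32. These 6 scores lie above every CiPSC library, while Rarb at 20 and Crabp1 at 70 lie within the CiPSC range.

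Day 40 and MEF were each set against the 6 CiPSC libraries in 1 limma fit. The lone library is there assumed to vary as CiPSC does. Titles of the MEF and course libraries share a prefix that the CiPSC titles lack. In every comparison with CiPSC, cell state and any difference between these sets of libraries therefore cannot be told apart. No fold is given for Cyp26a1, which is at 0 throughout CiPSC. On day 40, 2 of the other 7 members were higher, Stra6 (7.10 ± 1.40, adjusted p = 0.0159) and Cyp26b1 (4.90 ± 1.32, adjusted p = 0.0403), against 10.2% of the 15745 genes tested that were higher and 15.3% that were lower (25.5% in all). The Cyp26b1 call ended without CiPSC 1, 2, 4 or 6 (adjusted p = 0.0654 to 0.0741), and without CiPSC 3 Stra6 is at 0 in every remaining CiPSC library. In the same comparison 12 of 15 endoderm markers and 5 of 9 fibroblast markers were higher and none lower, and 8 of 13 pluripotency markers were lower and 1 higher, and their part was not tested. Rbp4 (5.07 ± 1.64, 0.0687), Dhrs3 (3.31 ± 1.30, 0.114), Crabp2 (1.96 ± 1.26, 0.306), Rarb (1.37 ± 1.64, 0.589) and Crabp1 (0.34 ± 0.48, 0.645) did not pass. In MEF, Crabp1 (4.78 ± 0.48, adjusted p = 0.000705) and Crabp2 (4.96 ± 1.26, 0.0239) were higher than in CiPSC, against 15.8% of genes that were higher and 23.2% that were lower (39% in all), and the other 5 with a value did not pass. Fibroblast markers were higher in MEF in 8 of 9 and macrophage markers in 3 of 3, and their part was not tested. Of those 5, Dhrs3 (3.74 ± 1.30, 0.0653) passed without CiPSC 4 (0.0424) or 6 (0.0318), and Cyp26b1 (3.67 ± 1.32, 0.0723) passed without CiPSC 3 (0.0359). With a pseudocount of 5 both passed.

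By median score over the 5 shared days, the full course was the lowest of the 3 courses for Rarb, Crabp2 and Dhrs3. The medians without BrdU, without Chir and in the full course were 614, 406 and 142 for Rarb, 556, 544 and 134 for Crabp2, and 1916, 1792 and 884 for Dhrs3. For Crabp2 and Dhrs3 the courses without BrdU and without Chir did not differ past the threshold in the direct test above. For Crabp1 the order was without BrdU (6875), MEF (1536), full course (752), without Chir (229) and CiPSC (54.5), the courses again over the shared days. For Cyp26a1 it was full course (3414), without Chir (1190) and without BrdU (28), with MEF and CiPSC at 0, and the first 2 did not differ past the threshold over the shared days.

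Among the 8 genes themselves, patterns over the 20 libraries of MEF and the courses ranged widely. Rarb and Dhrs3 had a Pearson r of 0.97 in log2(score + 1), Crabp2 and Dhrs3 0.89, Rarb and Crabp2 0.88, and Cyp26b1 and Rarb 0.86. Cyp26b1 had an r of 0.82 with Dhrs3, 0.74 with Stra6 and 0.66 with Crabp2, and Crabp1 one of 0.64 with Crabp2. Cyp26a1 had an r of -0.10 with Rarb, -0.58 with Crabp1 and 0.24 with Cyp26b1. Rbp4 had an r of -0.07 with Rarb and at most 0.48 with any other member (Stra6). These values describe the libraries only, which share courses and successive days and are not independent.

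**Figure D4:**
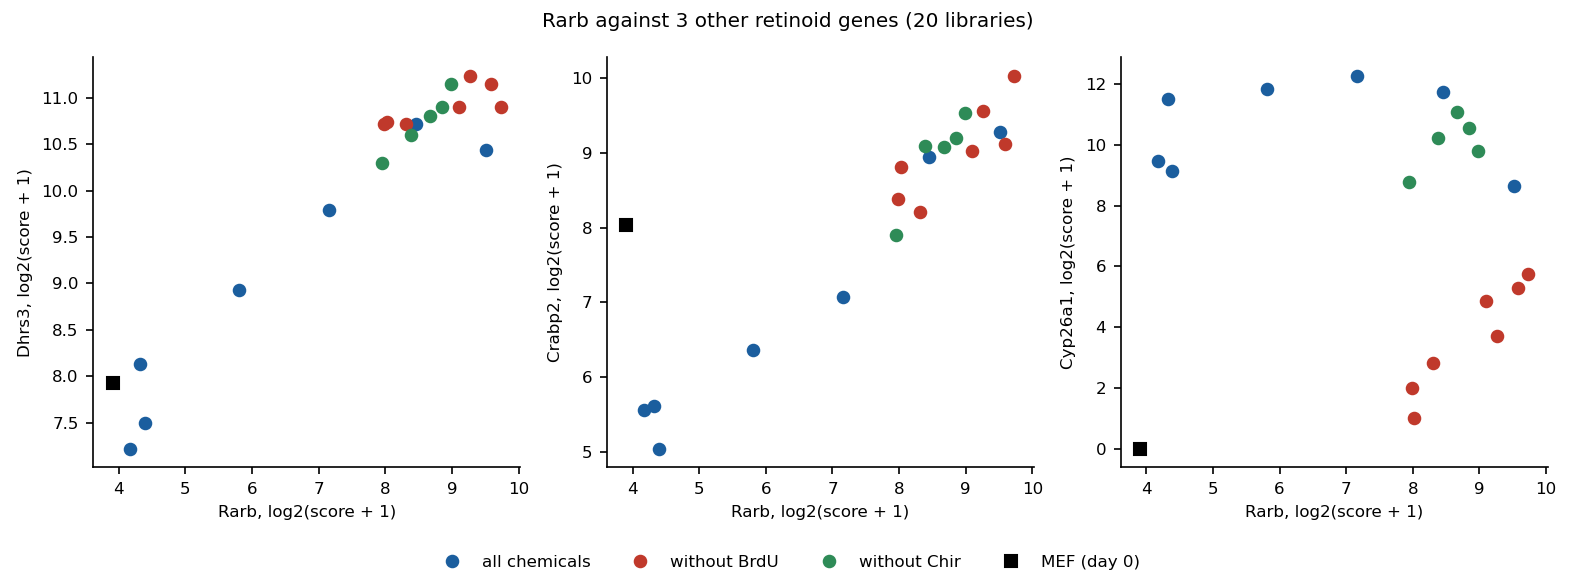
Rarb against Dhrs3, Crabp2 and Cyp26a1 in the 20 libraries of MEF and the 3 courses, on log2(score + 1) axes, 1 point per library. Dhrs3 and Crabp2 rise with Rarb (r of 0.97 and 0.88), with MEF off the line for Crabp2, and Cyp26a1 separates the course without BrdU (red) from the other courses at like Rarb scores.

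For each member the 3 genes with the highest Pearson r over the same 20 libraries, among 15270 genes with a mean score of at least 5, were taken. Nearest to Rarb after Dhrs3 were Cyb5b (0.95), a cytochrome of the outer mitochondrial membrane, and Nr2f2 (0.94), an orphan nuclear receptor. In the full course Nr2f2 had 521 on day 6 and 72 on day 40, against 132 in MEF. Nearest to Dhrs3 were the chemokine Cxcl5 (0.97), Rarb and Mgst1 (0.96), a microsomal glutathione transferase. Nearest to Crabp2 were Flywch2 (0.97), the homeobox gene Hoxa5 (0.96) and Armcx6 (0.95). Nearest to Cyp26a1 were Npr1 (0.95), a receptor for natriuretic peptide, Arl4d (0.95) and Bex2 (0.94). All 3 were lower on day 18 without BrdU (13, 7 and 14) than in the full course (182, 105 and 110). Their choice by r over these same libraries favours that order.

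Cyp26b1 lay nearest to the heparan sulfate degrading enzyme Hpse (0.97), to Gm26809 (0.97) and to Fam84a (0.96). Gm26809 stood at the maximum of 21988 on day 6 of the full course and on day 18 of all 3 courses. Any difference between those libraries is hidden at that maximum. Stra6 lay nearest to Clstn3 (0.92), Cxadr (0.91), a cell adhesion protein, and Notum (0.91), a secreted Wnt inhibitor listed at 0 in MEF and at 648 after 6 days of the full course. Crabp1 lay nearest to a row whose name the table holds as a date, to Col7a1 (0.96), the collagen of anchoring fibrils, and to Dnm1 (0.96). Rbp4 had the loosest neighbours, Rab25 (0.87), a GTPase of epithelial cells, Pttg1ip (0.87) and Pllp (0.85). These lists were not stable: with all 26 libraries at most 1 of the 3 genes nearest to a member was found again, and with Spearman's rho at most 2.

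The rest of the retinoid pathway was read from a list of 64 genes, of which 57 are in the table. Without BrdU 19 of the 55 tested were higher and 14 lower, against 21.1% and 21.5% of all genes, and their median log2 change was 0.32 against 0.02. Lrat, which esterifies retinol for storage, was higher (1.97 ± 0.59, limma adjusted p = 0.0250). Lrp2, an endocytic receptor that takes up Rbp4 (-6.52 ± 0.79, 0.000759), and the plasma partner of Rbp4, Ttr (-3.40 ± 0.88, 0.0134), were lower. Ttr also stands among the endoderm markers above. Those 18 markers were all lower in the same comparison, and their part in the Lrp2 and Ttr changes was not tested. Of the 8 genes of supply and storage tested, 3 were higher and 3 lower.

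Of 18 enzymes of retinoid oxidation 5 were higher and 2 lower without BrdU, against 21.1% and 21.5% of all genes. Aldh1a3, which makes retinoic acid, was lower (-1.26 ± 0.38, adjusted p = 0.0259), while Aldh1a1 (0.32 ± 0.38, 0.520) and Aldh1a2 (0.41 ± 0.40, 0.433) did not pass. The Cyp26 relative Cyp26c1 was lower (-4.34 ± 0.62, adjusted p = 0.00129), with scores of 0 or 1 on all 7 days against 5 to 124 in the full course. Among 14 receptors, carriers and coregulators 5 were higher and 5 lower, against the same shares of all genes. Rarg was higher (1.92 ± 0.35, 0.00312), Rara lower (-0.60 ± 0.14, 0.00990), and the orphan receptors Nr2f1 (3.08 ± 0.45, 0.00135) and Nr2f2 (1.65 ± 0.37, 0.00770) higher.

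Of 14 other targets of retinoic acid 6 were higher and 3 lower without BrdU, against 21.1% and 21.5% of all genes. Foxa1, an endoderm and epithelial transcription factor (3.39 ± 0.61, adjusted p = 0.00288), Rarres2, which encodes chemerin (3.07 ± 0.70, 0.00780), and Meis2, a homeobox gene (2.37 ± 0.25, 0.000530), were higher. The meiotic gene Stra8 was lower (-3.84 ± 0.69, 0.00294). Without Chir 13 of 55 pathway genes were higher and 7 lower, against 13.5% and 12.9% of all genes. Higher were Hoxb5 (2.87 ± 0.54, 0.0158), Rarres2 (2.69 ± 0.44, 0.0122), Lrat (2.34 ± 0.67, 0.0403) and Aldh1a3 (1.80 ± 0.36, 0.0176). Lower were Lrp2 (-4.25 ± 0.80, 0.0156), Rdh1, a retinol dehydrogenase (-1.76 ± 0.42, 0.0252), and the coactivator Ncoa2 (-1.25 ± 0.31, 0.0282).

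**Figure D5:**
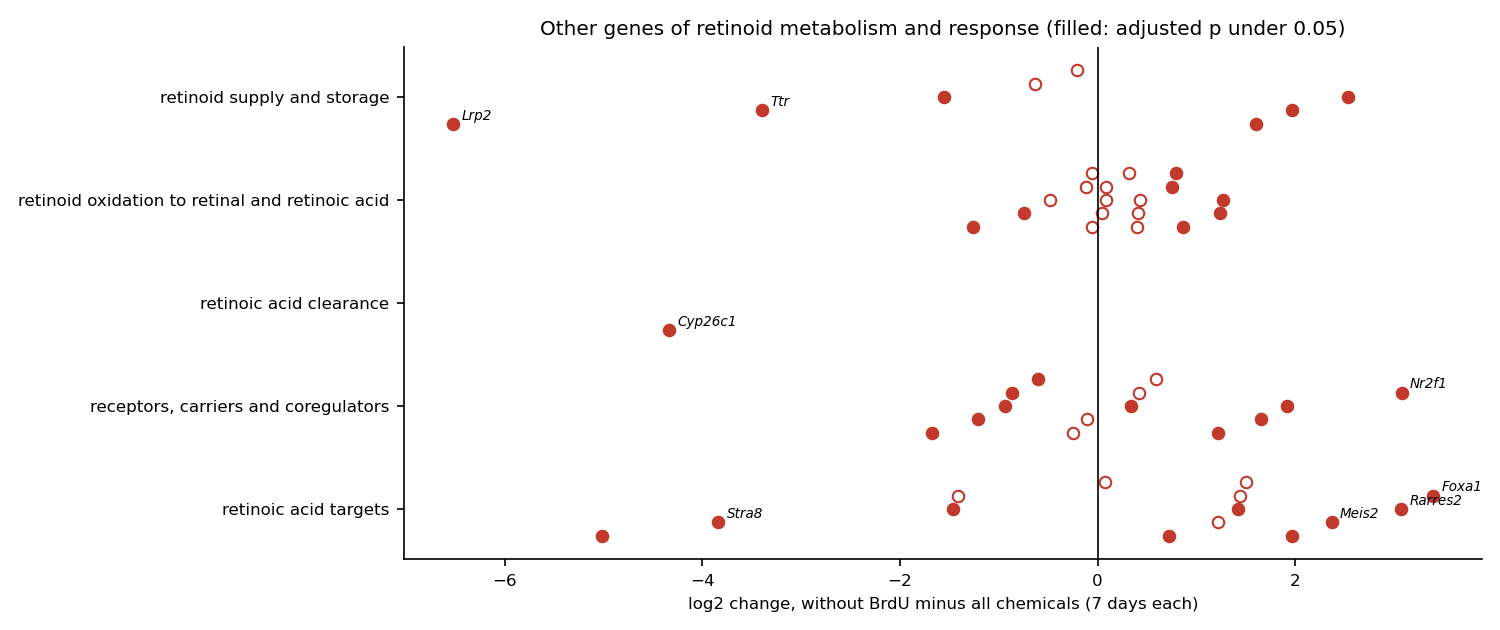
Log2 change without BrdU against the full course (7 days each) for the 55 other retinoid genes tested, 1 point per gene, in rows by role. Filled points have an adjusted p under 0.05 (19 higher and 14 lower), and 8 of them that the text describes are named, with Lrp2 the lowest at -6.52.

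Late in the full course the pathway list had 3 higher and 11 lower of 55 (days 30 to 40 minus 12 to 22), against 6.81% and 7.79% of all genes. Lower were Lrat (-4.38 ± 0.64, limma adjusted p = 0.00610), Aldh1a3 (-3.24 ± 0.43, 0.00429), Adh7 (-2.57 ± 0.43, 0.00954) and Meis2 (-2.23 ± 0.36, 0.00832). Higher were Ttr (2.78 ± 0.47, 0.00954), Rara (1.21 ± 0.18, 0.00690) and Rarres1 (0.98 ± 0.24, 0.0345). Enzymes of retinoid oxidation were lower in 5 of 18 and higher in none. In the course without BrdU over the same days, 7 of those 18 were lower and none higher (8.13% and 8.99% of all genes), with Aldh1a3 (-2.69 ± 0.45, 0.00875) and Adh7 (-1.91 ± 0.21, 0.00174) again among them. Against CiPSC, of the 49 pathway genes with a value, MEF was higher for 11 and lower for 4 (15.8% and 23.2% of all genes), and day 40 was higher for 14 and lower for 1 (10.2% and 15.3%).

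In mm10 (GENCODE M21) all 8 members are protein-coding. Rbp4 lies on chromosome 19 from 38116629 to 38125281 and Cyp26a1 on the same chromosome from 37697798 to 37701536. Stra6 lies on chromosome 9 from 58063788 to 58153996, and Crabp1 on chromosome 9 from 54764748 to 54773110. Crabp2 lies on chromosome 3 from 87948666 to 87953376, Dhrs3 on chromosome 4 from 144892827 to 144928209, Cyp26b1 on chromosome 6 from 84571414 to 84593908 and Rarb on chromosome 14 from 16430839 to 16819156.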

How the data were processed

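RNA was sequenced from 26 mouse libraries. Per the labels' protocols, RNA was isolated in TRIzol, converted to TruSeq libraries and sequenced on an Illumina NextSeq. Bowtie2, RSEM, bcl2fastq and the build mm10 appear in the submitters' processing notes. Versions, annotation, normalization and filter are not given in the sources used here. The values the authors deposited are treated as a score: the table's name says CPM, but every library has nearly the same total and the same maximum, so they were set to 1 common distribution and rounded. Depth is unknown, and no counting interval can be given.

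Scores were analysed as log2(score + 1), which understates changes near 0, in R 4.3.3 with limma 3.58.1 (intensity trend) after dropping genes whose mean score in a fit was below 1. P-values are two-sided, adjusted by Benjamini-Hochberg over all genes tested, with a threshold of 0.05. The fits were tested on simulated data with independent noise in each library. That test cannot show how dependent days or the common distribution affect them. In comparisons with CiPSC, genes at 0 in all 6 CiPSC libraries are left out of counts. Comparisons of courses pair libraries by the day in the labels, used as a block. Successive days are not independent, and nothing says the libraries came from separate cultures, so p-values measure only the spread between these libraries. The common distribution favours a balance of rises and falls, and hides any change in total RNA. The members, lists and tests were chosen with earlier results of these data known. Named were all 8 members, per comparison up to 4 called pathway genes with the largest rise and 4 with the largest fall (the text gives those of the course comparisons and the late days), and the 3 genes nearest to each member. Gene positions are those of GENCODE M21 (GRCm38, the assembly of mm10), and promoter windows are those of RefSeq. Alternatives changed the pseudocount, filter, centring, variance trend, block, days and libraries. The direct comparison of the courses without Chir and without BrdU, and that of the periods without BrdU, were added after seeing the data. Further pathway genes in the text (Ttr, Lrat, Aldh1a1, Aldh1a2, Rarg, Rara, Nr2f2 and Meis2 without BrdU) were chosen after their values were seen. Some genes that the rule names are not reported here.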

Additional observations from a re-analysis of the deposited data

Results flagged for a closer look

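Stra6 stood at 10 in CiPSC 3 and at 0 in the other 5 CiPSC libraries, a gap that spans the whole range of the group. The flag gives no chance for such a gap, since 1 library above 0 with the other 5 at 0 always meets its rule. The days of a course were not screened in this way because they are not repeats of 1 condition.

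For 4 of the 8 genes the difference made by BrdU was not the same in the late period (days 30 to 40) as in days 6 to 22. The interaction term of the limma fit (log2, 14 libraries) passed for 13.6% of the 16308 genes tested. That term was -2.99 for Stra6, 2.39 for Cyp26b1, 2.03 for Dhrs3 and 1.43 for Crabp1. The Dhrs3 call ended without day 36 or 40, and the Crabp1 call without day 12, 30, 36 or 40.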

How the results depend on the processing

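Depth is unknown for these scores, so low values such as those of CiPSC carry an error that could not be measured. With 1 day or library left out, the genes called over the whole table ranged from 25 to 4994 without Chir (4298 with all days), 713 to 2472 for the BrdU interaction (2218), 1377 to 2862 for the slope (2729), 892 to 2281 for the late full course (2367), 2772 to 4783 between the courses without Chir and without BrdU (5176) and 1174 to 2627 for the late course without BrdU (2707). Members called ranged in these from 0 to 5 without Chir, 2 to 6 for the interaction, 2 to 6 for the slope, 2 to 5 for the late full course and 1 to 2 for day 40 against CiPSC. The log2 difference of Cyp26b1 without Chir ranged from -0.019 (without day 30) to 0.16 (without day 6), the slope of Cyp26a1 from -0.24 (without MEF) to 2.03 (without day 40), and that of Stra6 from -0.52 (without MEF) to 1.41 (without day 6). Days 6 to 30 alone gave 3735 genes without BrdU in place of 6946, with fewer libraries. For the comparison without Chir, 1 member was called with no intensity trend, and 1 fit over the 3 courses called 5 members and 6895 genes; the cause was not tested. Pairing by day mattered there: with no replicate block 0 members were called. A pseudocount of 5 called 4 members in MEF against CiPSC, and a log2 difference of at least 2 left 948 of 2324 genes moved on day 6. Without BrdU, 52 of 56 values of members held their call with 1 day left out, and the other 4 belong to Cyp26b1.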

Other observations

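The values of 3 enzymes that make retinoic acid were chosen here after they were seen. Aldh1a3 stood at 10 in MEF. Without Chir it was at 270 on day 6, 864 on day 12, 920 on day 18, 1072 on day 22 and 44 on day 30. In the full course it was at 127, 217, 202, 115 and 30 on those days, and without BrdU at 14, 38, 93, 107 and 14. The direct comparison of the courses without Chir and without BrdU gave a log2 difference of 3.37 ± 0.39 (limma adjusted p = 0.00128). Aldh1a1, of the same family, was listed at 0 in all 6 CiPSC libraries and stood at 116 in MEF, 110 to 624 in the full course, 118 to 604 without BrdU and 323 to 830 without Chir. Aldh1a2 had 32 to 82 in CiPSC, 52 in MEF, 6 to 64 in the full course, 7 to 93 without BrdU and 8 to 16 without Chir, ranges that overlap except for CiPSC and MEF against the course without Chir.

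Stra8, known as a retinoic acid responsive gene of germ cells, and Cdx1, a homeobox gene that retinoic acid induces in embryos, were higher in CiPSC than in MEF while the 8 members were low there. Stra8 lay between 42 and 244 in CiPSC and at 0 in MEF (limma, MEF minus CiPSC, -6.90 ± 0.91, adjusted p = 0.00202). Cdx1 lay between 182 and 260 in CiPSC and at 0 in MEF (-7.78 ± 0.25, adjusted p = 2.93e-06), and no course library exceeded 1.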
